A study of Mus musculus with 6 samples.

Results

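The aminoacyl-tRNA synthetases are the enzymes that join each amino acid to its transfer RNA, and so supply the ribosome with its building blocks. Most are encoded by separate genes for the cytosol and for the mitochondrion. In mouse gene symbols the letter names the amino acid, "ars" names the enzyme, and a final 2 marks the mitochondrial form. The members were chosen by symbol alone, as an amino acid letter followed by "ars" with an optional 1 or 2, together with Farsa, Farsb and Eprs. This gave 37 genes of 17759 identifiers in the files, 20 cytosolic and 17 mitochondrial. All 37 were listed in all 6 libraries, and all 37 passed the filter on low counts. Kars, for lysine, and Gars, for glycine, each encode both the cytosolic and the mitochondrial enzyme from a single gene, and were counted as cytosolic.

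Several cytosolic synthetases sit together in a multi-tRNA synthetase complex held by the scaffold proteins Aimp1, Aimp2 and Eef1e1. When an amino acid runs short, uncharged tRNA activates the kinase GCN2 (Eif2ak4), and the transcription factor ATF4 is then translated and induces amino acid transporters, amino acid biosynthesis enzymes and many of the cytosolic synthetases. Activated T cells are known to raise protein synthesis strongly, and MYC is among the factors that drive amino acid uptake and translation in them.

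RNA sequencing was performed on Treg cells, regulatory CD4 T cells marked by the transcription factor Foxp3, from 8-week-old C57BL/6 mice of 2 genotypes. Knockout cells (KO) came from MondoAfl/flFoxp3Cre mice, in which the floxed MondoA gene is deleted by a Cre driven by Foxp3, and wild-type cells (WT) from MondoA+/+Foxp3Cre mice, so every group carries the Cre. MondoA, encoded by Mlxip, is a glucose-responsive transcription factor whose best known targets are Txnip and Arrdc4. For each genotype there was 1 library of iTreg cells, 1 of stimulated nTreg cells and 1 of resting nTreg cells. iTreg cells were made from sorted CD4+YFP- naive T cells (CD44 low, CD62L high) held for 4 days in polarizing culture. Stimulated nTreg cells were kept for 48 h on plates coated with anti-CD3 (5 μg/ml), in medium with IL-2 at 100 U/ml and anti-CD28 at 2 μg/ml. Resting nTreg cells were sorted as CD4+CD25hiYFP+ cells from spleens and lymph nodes. The Cre acts only in cells that express Foxp3, so in the iTreg cultures deletion depends on Foxp3 being switched on during polarization. The number of mice behind each library was not given in the sources used here. The groups are therefore single samples, and the p-values below measure the spread that is left among 6 libraries after state and genotype. In the tests of state and of genotype alike, this spread holds any genotype difference that varies between states. It also holds other variation between libraries, which may be technical, and these parts cannot be told apart.

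The libraries held 9760285 to 10185664 expected counts. Mlxip read 70.7 CPM in KO iTreg cells and 167.3 CPM in WT iTreg cells, 87.1 and 151.8 CPM in KO and WT stimulated cells, and 107.5 and 142.4 CPM in KO and WT resting cells, where CPM are counts scaled with TMM factors to a common library size. Txnip fell in knockout cells over the 3 states together (log2 difference -2.15, standard error 0.19, edgeR adjusted p = 0.0017). The Treg markers Foxp3, Il2ra, Ctla4, Ikzf2, Cd4 and Cd3e were present in every library, with a summed level of 4088 to 5751 CPM. Of these 6 genes, 2 were lower and 4 higher in KO than in WT resting cells. Among them only Il2ra differed by more than 1.5-fold, at 439 CPM in KO and 808.2 CPM in WT resting cells (log2 fold -0.88). The part of this difference in the results below was not tested. Ikzf2, which marks thymus-derived Treg cells, was at 13.3 and 34.1 CPM in KO and WT iTreg cells, against 359.2 to 553.8 CPM in the 4 nTreg libraries. Of the markers of other cell types, B cell genes summed to 60.7 and 24.1 CPM in KO and WT iTreg cells, 57.3 and 42.2 CPM in stimulated cells, and 128.6 and 79.1 CPM in resting cells, with none of the 6 at 0. The 2 CD8 T cell genes summed to 182.8 and 99.7 CPM in KO and WT iTreg cells, 55.3 and 47.2 CPM in stimulated cells, and 22.9 and 33.0 CPM in resting cells. The 3 NK cell genes summed to between 1.29 and 6.45 CPM, and the 6 myeloid and dendritic genes to 4.10 and 5.71 CPM in KO and WT iTreg cells, 18.1 and 31.7 CPM in stimulated cells, and 62.7 and 63.4 CPM in resting cells. These sums differ both between states and between genotypes, and their part in the results below was not tested. As in any bulk sample, fewer cells of a type and less RNA per cell cannot be told apart.

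Per unit length, the cytosolic synthetases were among the well expressed genes of these cells. On the FPKM scale (read fragments scaled to transcript length and library size), their median was 48.9 and 58.2 in KO and WT iTreg cells, 56.4 and 53.0 in KO and WT stimulated cells, and 23.6 and 27.1 in KO and WT resting cells. The mitochondrial synthetases had medians of 7.82 and 6.66 FPKM in KO and WT iTreg cells, 8.39 and 8.50 FPKM in stimulated cells, and 7.06 and 6.65 FPKM in resting cells. All 20 cytosolic genes were at or above the median of the listed genes of their library in each of the 6 libraries, whereas 8 to 12 of the 17 mitochondrial genes were. As a share of all counts, the cytosolic synthetases took 0.342 and 0.376% in KO and WT iTreg cells and 0.360 and 0.325% in stimulated cells, against 0.168 and 0.180% in resting cells. The mitochondrial share moved far less, with 0.0449 and 0.0466% in KO and WT iTreg cells, 0.0498 and 0.0537% in stimulated cells, and 0.0419 and 0.0435% in resting cells.

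**Figure D1:**
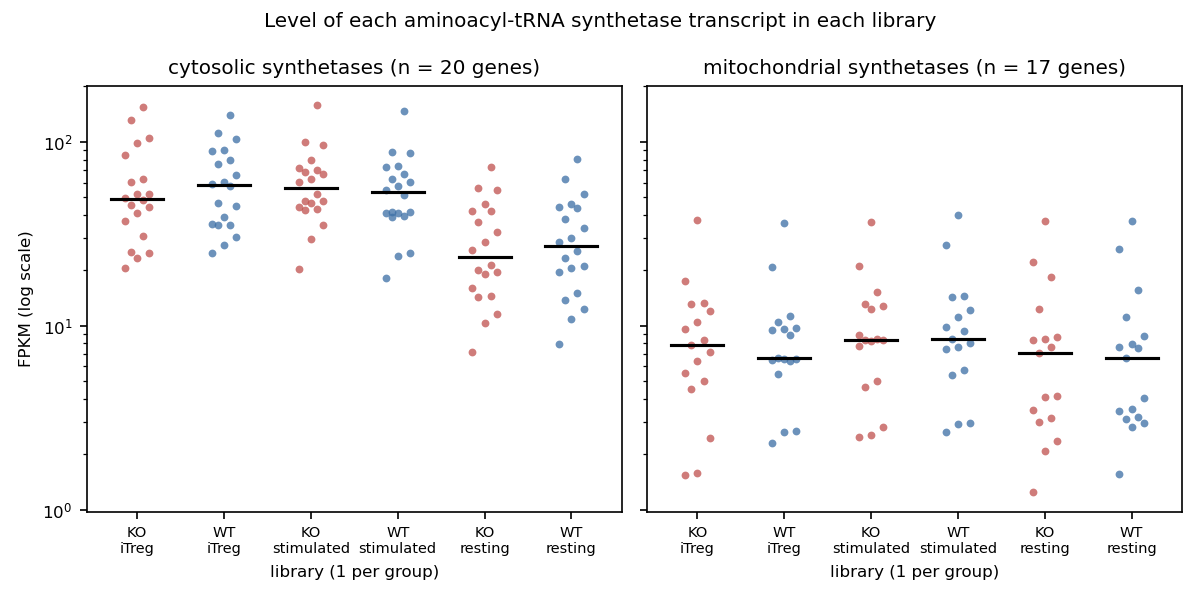
FPKM on a log scale of each cytosolic (left) and mitochondrial (right) synthetase gene in each of the 6 libraries, KO red and WT blue, with the median as a bar. The cytosolic medians are 48.9 to 58.2 FPKM in the 4 iTreg and stimulated libraries and 23.6 and 27.1 FPKM in the 2 resting ones, while the mitochondrial medians stay between 6.65 and 8.50 FPKM.

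Within the family the order of levels was led by Kars, the lysyl enzyme. Kars reached 154.1 and 112.1 FPKM in KO and WT iTreg cells, 157.8 and 147.3 FPKM in KO and WT stimulated cells, and 73.2 and 80.5 FPKM in KO and WT resting cells. It ranked first of 37 in stimulated and in resting cells. In iTreg cells Wars, the tryptophan enzyme, ranked first with 131.6 and 140.1 FPKM in KO and WT cells, but these values lie inside the spread of the Kars values, so the 2 genes cannot be ordered there. Vars, for valine, followed with 104.9 and 103.0 FPKM in KO and WT iTreg cells. Cars, for cysteine, was the lowest cytosolic gene in both resting and both stimulated libraries, at 7.23 and 7.91 FPKM in KO and WT resting cells. Among the mitochondrial genes Tars2, for threonine, was highest in every library, between 36.1 and 39.9 FPKM, and hardly varied. Iars2, for isoleucine, came next. Nars2, for asparagine, was lowest in 4 libraries, and Ears2, for glutamate, in the other 2. Nars2 lay between 1.24 and 2.94 FPKM.

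Stimulation of nTreg cells came with higher transcript levels of most cytosolic synthetases. In the model fitted over all 6 libraries, 17 of 20 cytosolic genes were higher in stimulated than in resting cells and none was lower, and the median log2 difference was 1.16. Of the mitochondrial genes 8 of 17 were higher and none was lower, with a median of 0.61. Over all 12848 genes tested, 24.1% were called higher and 22.3% lower, and the median was 0.00. A call here is an edgeR quasi-likelihood test with a Benjamini-Hochberg adjusted p below 0.05 over all genes tested, and each state contrast rests on 2 libraries a side, 1 of each genotype.

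Iars, the isoleucine enzyme, had the largest difference. It was at 214.3 and 182.7 CPM in KO and WT stimulated cells, against 43.2 and 52.9 CPM in KO and WT resting cells (log2 difference 2.06, standard error 0.26, adjusted p = 0.00027). Eprs, the fused enzyme for glutamate and proline, was at 356.2 and 283.3 CPM in KO and WT stimulated cells, against 88.1 and 101.2 CPM in resting cells (1.75, standard error 0.22, adjusted p = 0.00028). In both genes the stimulated libraries were well clear of the resting ones in either genotype. Mars1, the methionine enzyme, which also charges the initiator tRNA, was at 147.3 and 124.5 CPM in KO and WT stimulated cells, against 40.7 and 40.0 CPM in resting cells (1.73, standard error 0.18, adjusted p = 9.25e-05). Rars, the arginine enzyme, was at 152.4 and 135.8 CPM in KO and WT stimulated cells, against 40.9 and 53.1 CPM in resting cells (1.60, standard error 0.22, adjusted p = 0.000476). Iars, Eprs, Mars1 and Rars all belong to the multi-tRNA synthetase complex.

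Of the 8 members of the complex 6 were higher in stimulated cells with a median of 1.35, and of the 12 other cytosolic genes 11 were higher with a median of 1.16. Its remaining called members were Kars (1.05, standard error 0.21) and Lars, the leucine enzyme (1.10, standard error 0.22). Lars was at 142.5 and 96.7 CPM in KO and WT stimulated cells, against 52.8 and 56.8 CPM in resting cells. The Kars call was lost without the KO resting library (adjusted p = 0.0566), and the Lars call without the KO stimulated library (adjusted p = 0.0678). Qars, the glutamine enzyme, was at 188.8 and 183.6 CPM in KO and WT stimulated cells, against 132.8 and 127.7 CPM in resting cells, and missed the threshold (0.50, standard error 0.19, adjusted p = 0.0551). It was called without the WT iTreg (adjusted p = 0.00977) or the KO iTreg library (adjusted p = 0.00932). Dars, the aspartate enzyme, had a log2 difference of 0.25 (adjusted p = 0.286). Of the scaffold proteins that hold these enzymes, Eef1e1 (1.70) and Aimp2 (1.57) were higher, while Aimp1 had a difference of 0.39 (adjusted p = 0.14).

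Outside the complex the called differences in stimulated cells ran between 0.76 for Vars and 1.45 for Cars. Gars was at 240.7 and 210.3 CPM in KO and WT stimulated cells, against 83.2 and 88.2 CPM in resting cells (1.38, standard error 0.19). Cars was at 65.1 and 55.1 CPM in KO and WT stimulated cells, against 20.7 and 23.3 CPM in resting cells, the largest difference outside the complex. Yars, the tyrosine enzyme, was at 89.4 and 69.4 CPM in KO and WT stimulated cells, against 31.7 and 30.7 CPM in resting cells (1.34). In all 3 genes the stimulated libraries were at least 2 times the resting ones of the same genotype. Farsb, the beta subunit of the phenylalanine enzyme, was at 96.9 and 84.0 CPM in KO and WT stimulated cells, against 31.7 and 40.0 CPM in resting cells (1.32). Tars, the threonine enzyme, was at 183.9 and 161.2 CPM in KO and WT stimulated cells, against 64.7 and 73.7 CPM in resting cells (1.31). Aars, the alanine enzyme, was at 187.0 and 154.6 CPM in KO and WT stimulated cells, against 70.1 and 75.1 CPM in resting cells (1.23). These 3 had differences of like size, and each was called in every alternative tried. Hars, the histidine enzyme, was at 131.1 and 110.2 CPM in KO and WT stimulated cells, against 53.9 and 57.9 CPM in resting cells (1.09). Farsa, the alpha subunit of the phenylalanine enzyme, was at 81.8 and 72.8 CPM in KO and WT stimulated cells, against 37.2 and 41.7 CPM in resting cells (0.95). The 2 phenylalanine subunits thus moved in the same direction. Nars, the asparagine enzyme, was at 220.9 and 198.7 CPM in KO and WT stimulated cells, against 106.8 and 119.4 CPM in resting cells (0.89). Wars was at 174.5 and 185.4 CPM in KO and WT stimulated cells, against 82.2 and 118.3 CPM in resting cells (0.85). Vars was at 439.9 and 378.8 CPM in KO and WT stimulated cells, against 220.4 and 258.7 CPM in resting cells. These 3 and Farsa had the smallest called differences, and each call depended on a library. Without the KO resting library adjusted p was 0.107 for Farsa, 0.167 for Wars and 0.212 for Vars, and without the KO stimulated library it was 0.213 for Nars, 0.0824 for Wars and 0.198 for Vars. Sars, the serine enzyme, was the gene of this group that was not called (0.29, adjusted p = 0.237). The synthetases fall into 2 structural classes that differ in how the active site is built. In stimulated cells 9 of 10 class I and 8 of 10 class II cytosolic genes were higher, with medians of 1.39 and 1.07. Eprs, the fused enzyme for glutamate and proline, was counted in class I only. The mitochondrial enzymes for these amino acids, Ears2 and Pars2, are of class I and class II in that order.

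Among the mitochondrial genes, Mars2, the methionine enzyme, was at 26.9 and 23.5 CPM in KO and WT stimulated cells, against 8.66 and 7.96 CPM in resting cells (1.59, standard error 0.25, adjusted p = 0.000943). Lars2, for leucine, was at 33.8 and 30.2 CPM in KO and WT stimulated cells, against 15.2 and 15.4 CPM in resting cells (1.05). The calls of Mars2 and Lars2 held under every alternative tried. Nars2 was at 9.81 and 11.3 CPM in KO and WT stimulated cells, against 4.47 and 5.77 CPM in resting cells (1.04). Yars2, for tyrosine, was at 24.8 and 23.2 CPM in KO and WT stimulated cells, against 12.5 and 11.6 CPM in resting cells (0.98). Rars2, for arginine, was at 24.8 and 27.1 CPM in KO and WT stimulated cells, against 15.5 and 13.9 CPM in resting cells (0.81). In these genes too the stimulated libraries lay above both resting ones. Aars2, for alanine, was at 16.4 and 19.6 CPM in KO and WT stimulated cells, against 9.61 and 11.3 CPM in resting cells (0.77). Sars2, for serine, was at 26.0 and 21.4 CPM in KO and WT stimulated cells, against 15.3 and 12.3 CPM in resting cells (0.77). When a resting or stimulated library was left out, the calls of Nars2, Yars2, Rars2, Aars2 and Sars2 could be lost, with adjusted p between 0.0504 and 0.195. The other 9 were not called, and for Cars2 (-0.38) and Fars2 (-0.33) the sign was negative. The mitochondrial count depended on single libraries: it was 5 without the WT resting library, 3 without the KO resting library, 3 without the WT stimulated library and 4 without the KO stimulated library. The cytosolic count was 13 without the KO resting or the KO stimulated library and 17 or 18 without any other.

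**Figure D2:**
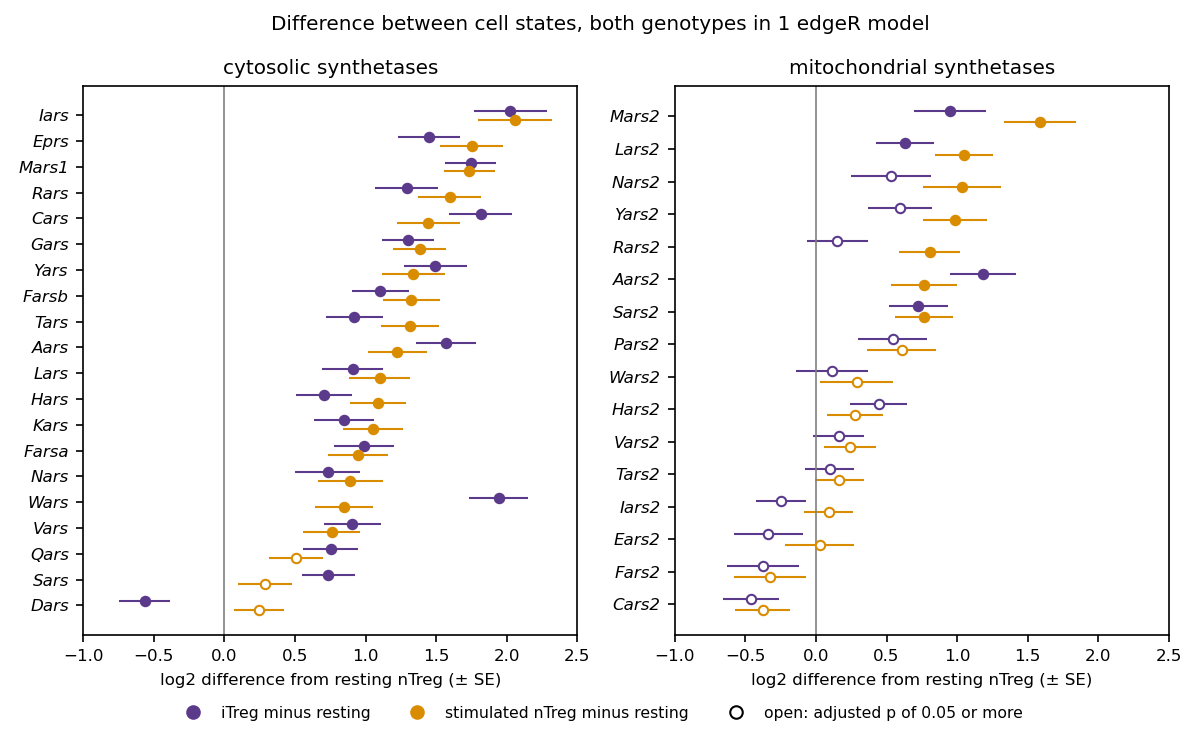
Log2 difference of each cytosolic (left) and mitochondrial (right) synthetase in iTreg cells (purple) and in stimulated nTreg cells (orange) from resting nTreg cells, with its standard error, from the edgeR model over 6 libraries, for 36 of the 37 genes. Filled points pass an adjusted p of 0.05. Iars lies at the top of the cytosolic genes with about 2 in both contrasts, Wars is far higher in the iTreg contrast, and Dars is the only filled point below 0.

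iTreg cells also had higher levels of the cytosolic synthetases than resting nTreg cells. Of 20 cytosolic genes 19 were higher and 1, Dars, was lower, with a median log2 difference of 1.05. Of 17 mitochondrial genes 5 were higher, among them Aars2, Lars2, Mars2 and Sars2, and none was lower, with a median of 0.44. Over all genes tested 23.9% were called higher and 23.8% lower. This contrast uses the same 2 resting libraries as the stimulation contrast, and the iTreg cells differ from resting nTreg cells in starting population, culture and time, which cannot be told apart here.

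Iars was at 142.3 and 259.4 CPM in KO and WT iTreg cells, against 43.2 and 52.9 CPM in resting cells (2.03, standard error 0.26, adjusted p = 0.000269). Wars was at 381.8 and 382.9 CPM in KO and WT iTreg cells, against 82.2 and 118.3 CPM in resting cells (1.94, standard error 0.21, adjusted p = 9.04e-05). The 2 genes reached like differences with unlike patterns, since the Iars libraries differed by genotype and the Wars libraries hardly did. Cars was at 64.6 and 91.9 CPM in KO and WT iTreg cells (1.82), Mars1 at 140.3 and 131.7 CPM (1.75), Aars at 188.4 and 245.9 CPM (1.57), Yars at 75.3 and 101.1 CPM (1.49) and Eprs at 224.5 and 296.0 CPM (1.45), against the resting values given above. Of these 5 genes 4 were lower in the KO than in the WT iTreg library, and Mars1 was not. Rars was at 134.1 and 99.0 CPM in KO and WT iTreg cells (1.29), Lars at 100.1 and 106.5 CPM (0.91) and Vars at 464.8 and 436.7 CPM (0.91). Without the KO resting library the calls of Lars (adjusted p = 0.0603) and Vars (adjusted p = 0.0863) were lost.

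Gars was at 211 and 213.3 CPM in KO and WT iTreg cells (1.30), Farsb at 80.4 and 74.3 CPM (1.10, adjusted p = 0.00187) and Tars at 112.3 and 151.9 CPM (0.92), against the resting values given above. These 3 were called under every alternative tried. Farsa was at 95.1 and 64.6 CPM in KO and WT iTreg cells (0.99), Hars at 107.5 and 77.5 CPM (0.70) and Nars at 143.6 and 240.1 CPM (0.73). Kars was at 330.4 and 230.2 CPM in KO and WT iTreg cells, against 144.1 and 162.4 CPM in resting cells (0.85). In all 7 genes both iTreg libraries lay above both resting ones. Without the KO resting library adjusted p was 0.0807 for Farsa, 0.163 for Kars and 0.266 for Hars. For Nars it was 0.118 without the WT resting and 0.154 without the WT iTreg library.

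Qars and Sars, not called in stimulated cells, were called in iTreg cells. Qars was at 255.4 and 188.5 CPM in KO and WT iTreg cells, against 132.8 and 127.7 CPM in resting cells (0.75, adjusted p = 0.0104). Sars was at 239.7 and 291.9 CPM in KO and WT iTreg cells, against 159.2 and 157.9 CPM in resting cells (0.74, adjusted p = 0.0106). The Qars call was lost without the KO resting library (adjusted p = 0.114) and the Sars call without the WT resting library (adjusted p = 0.107). Aars2, at 25.3 and 22.3 CPM in KO and WT iTreg cells, against 9.61 and 11.3 CPM in resting cells, had the largest mitochondrial difference (1.18) and was the mitochondrial gene called under every alternative. Mars2 was at 13.6 and 18.8 CPM in KO and WT iTreg cells (0.95, adjusted p = 0.0129), Sars2 at 26.1 and 19.9 CPM (0.72, adjusted p = 0.0180) and Lars2 at 22.5 and 25.1 CPM (0.63, adjusted p = 0.0317). Their iTreg libraries lay above both resting ones. The call was lost for Mars2 without the WT resting (adjusted p = 0.0829) or the WT iTreg library (0.0639), for Sars2 without the WT resting (0.104) or the KO resting library (0.128) and with DESeq2 (0.0643), and for Lars2 in 6 alternatives, with adjusted p between 0.0704 and 0.180. All 3 scaffold genes were higher, with Eef1e1 at 1.20 and Aimp1 at 0.55.

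Dars went the other way. It was at 54.9 and 55.9 CPM in KO and WT iTreg cells, against 89.5 and 74.2 CPM in resting cells (-0.56, standard error 0.18, adjusted p = 0.0284). The 2 iTreg libraries lay below the 2 resting ones, but the call was lost when any of 5 libraries was left out: adjusted p = 0.0933 without the WT resting, 0.369 without the KO resting, 0.0590 without the WT stimulated, 0.0602 without the KO stimulated and 0.0632 without the KO iTreg library. The mitochondrial count of 5 was 1 without the WT resting library and 3 without the KO resting library. The cytosolic count of 19 was 13 without the KO resting library and 17 to 19 without any other.

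Set directly against stimulated nTreg cells, iTreg cells differed in 2 of the 37 synthetases. Wars was higher in iTreg cells, at 381.8 and 382.9 CPM in KO and WT iTreg cells, against 174.5 and 185.4 CPM in KO and WT stimulated cells (1.10, standard error 0.20, adjusted p = 0.00682). Dars was lower, at 54.9 and 55.9 CPM in KO and WT iTreg cells, against 101.5 and 93.8 CPM in stimulated cells (-0.81, standard error 0.18, adjusted p = 0.0167). In neither gene did the groups overlap. Over all genes, 6.81% were called higher and 7.62% lower in iTreg than in stimulated cells, so 1 of 37 in each direction is below the background share. The Wars call held without each library in turn, while the Dars call was lost without the WT stimulated (adjusted p = 0.107) or the KO stimulated library (adjusted p = 0.107). Without the WT iTreg library, Tars (-0.62) and Mars2 (-0.96) were called lower as well.

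Wars is known as the synthetase induced by interferon-gamma, and genes of that response were read beside it. Of 12 such genes 10 were tested, and 3 were higher in iTreg than in stimulated cells with none lower, among them Gbp2 (1.41), a guanylate-binding protein, and the transcription factor Irf1 (1.36). The 12 genes summed to 5824 and 5731 CPM in KO and WT iTreg cells, 2956 and 2937 CPM in KO and WT stimulated cells, and 2010 and 3098 CPM in KO and WT resting cells. In resting cells, where their sum was lower in the knockout library, Wars was also lower there, at 82.2 CPM in KO and 118.3 CPM in WT cells. Ido1, a further gene of this response, was at 0 in the 4 stimulated and iTreg libraries. The part of this response in the Wars level was not tested.

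**Figure D3:**
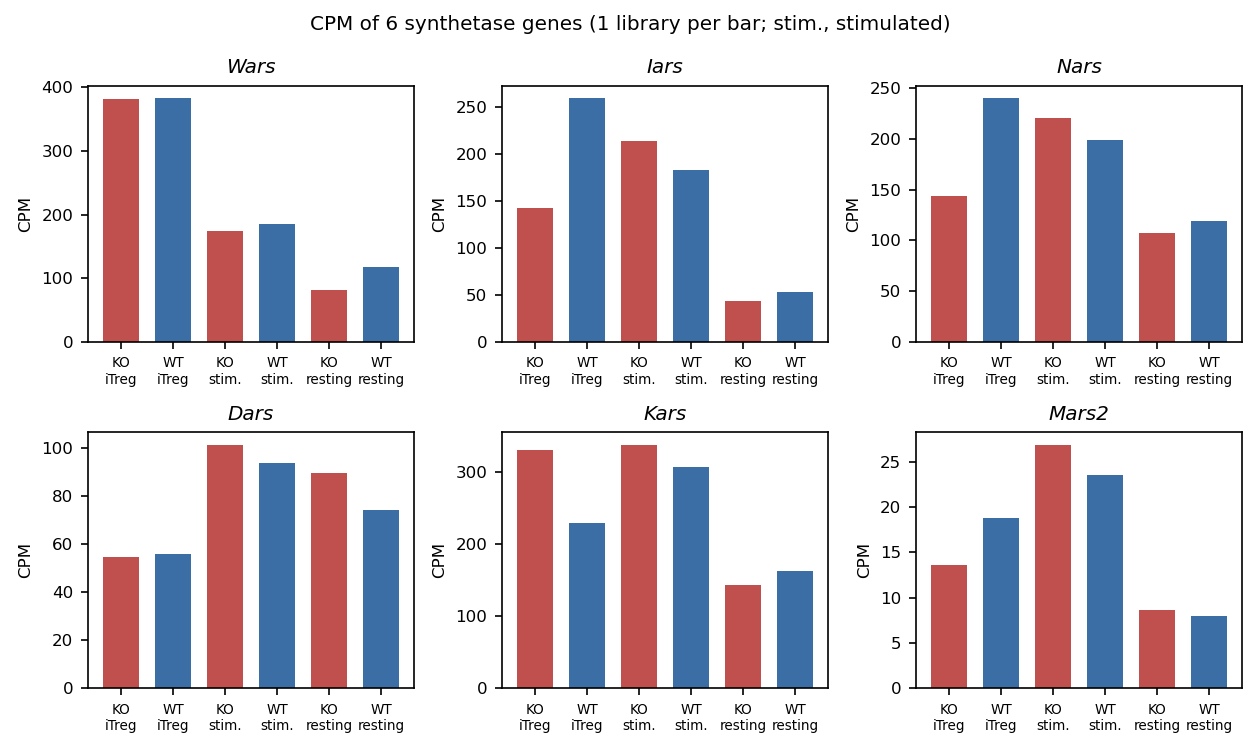
CPM of Wars, Iars, Nars, Dars, Kars and Mars2 in each library, KO red and WT blue, 1 library per bar, axes starting at 0. Wars is near 382 CPM in both iTreg libraries, whereas Iars is at 142.3 CPM in KO and 259.4 CPM in WT iTreg cells.

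The rest of the tRNA charging machinery was read from lists that hold none of the 37 genes chosen by symbol. Of 11 tRNA export and maturation genes, 7 were higher and 1 lower in stimulated cells, and 6 were higher and 1 lower in iTreg cells. Pop1, a subunit of RNase P, which trims the 5′ end of tRNA precursors, was at 59.8 and 46.6 CPM in KO and WT iTreg cells and 71.2 and 61.2 CPM in stimulated cells, against 4.57 and 6.47 CPM in resting cells. Its log2 difference was 3.25 in iTreg and 3.57 in stimulated cells, more than that of any synthetase. Xpot, the nuclear export receptor for tRNA, was higher as well (1.39 in iTreg cells, 1.33 in stimulated cells). Elac1, a tRNA 3′ processing enzyme, was lower (-1.48 in iTreg cells, -0.79 in stimulated cells).

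Of 6 cytosolic elongation factor genes, 4 were higher in iTreg cells and 2 in stimulated cells. Eef1a1, which carries charged tRNA to the ribosome and was the most abundant of them, had a difference of 0.41 in iTreg cells and 0.20 in stimulated cells, neither past the test. Eef1g was called in both (1.21 and 1.16). For these lists the background is all genes tested, of which 23.9% were called higher and 23.8% lower in iTreg cells. In stimulated cells these shares were 24.1 and 22.3%. Of 10 genes for mitochondrial tRNA charging and elongation, 3 were higher in iTreg and 5 in stimulated cells. They included Gatc, a subunit of the amidotransferase that makes mitochondrial glutaminyl-tRNA in place of a dedicated synthetase (1.42 in iTreg cells, 0.82 in stimulated cells), and Tufm, the mitochondrial elongation factor Tu (0.72 and 0.94). Of 7 trans-editing and synthetase-like genes, 1 was higher and 2 lower in iTreg cells, with a median of -0.21, and 2 were higher and none lower in stimulated cells, with a median of 0.33. Aarsd1, which clears mischarged alanyl-tRNA, was higher in both states (0.98 in iTreg cells, 1.26 in stimulated cells). Tarsl2, a gene similar to Tars that the symbol rule did not take in, was higher in stimulated cells (1.30). It was lower in iTreg than in stimulated cells (-1.12). Dtd1, which clears D-amino acids from tRNA, was lower in iTreg cells (-1.09), and so was Yrdc, which takes part in a modification of tRNA (-0.52). Of 5 selenocysteine pathway genes, 1 was higher and 1 lower in iTreg cells, and 2 were higher and 1 lower in stimulated cells, with Pstk, the kinase of this pathway, lower in both (-1.89 and -1.21).

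Regulators known to act on the synthetases, and a list of known ATF4 targets, were also compared between states. Of 21 genes made up of Atf4 and its known targets other than synthetases, 19 were higher in iTreg cells (median 2.00), and 13 were higher and 1 lower in stimulated cells (median 1.58). Asns, asparagine synthetase, was higher by 3.56 in iTreg and 3.62 in stimulated cells, and Psat1, of serine synthesis, by 2.89 and 3.20. Slc7a5, the large neutral amino acid transporter, was higher by 2.76 and 3.03. The Atf4 transcript itself did not pass (0.07 in iTreg and 0.04 in stimulated cells, standard error 0.20 in each), and ATF4 is known to be controlled mainly at translation, which these data do not measure. Myc was higher by 2.25 in iTreg and 1.69 in stimulated cells. Of the 6 genes of MYC and its partners that were tested, 3 were higher and 2 lower in iTreg cells. In stimulated cells 2 of them were higher and 1 lower. Of the amino acid stress sensors, Eif2ak4 was higher in stimulated cells (0.61, adjusted p = 0.035) and had a difference of 0.50 in iTreg cells (adjusted p = 0.071). Ppp1r15a, which restores translation after stress, was lower in both (-2.80 and -3.05).

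No synthetase passed the test for a genotype difference shared by the 3 states. By edgeR 0 of 37 were called between KO and WT cells, against 22 of 12848 genes, 0.171%. At an unadjusted edgeR p below 0.05 the count was also 0 of 37, against 1019 of 12848 genes. The smallest edgeR p of a synthetase was 0.0838, and DESeq2 likewise called 0. The log2 differences between KO and WT lay between -0.38 for Ears2 and 0.33 for Sars2. In this model a genotype difference confined to a single state counts as error, so the states were also read singly, where each genotype has 1 library and no test is possible. Their intervals are exact 95% intervals of the ratio and cover counting error only. Reads without molecular identifiers are not independent molecules. The share of all genes with an interval clear of 0 was not counted, so the counts of intervals below have no background.

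In stimulated cells the cytosolic synthetases leaned to the knockout side. Of 20 cytosolic genes 19 were higher in KO than in WT stimulated cells, with a median log2 fold of 0.20, and 16 had an interval above 0. Over the 10142 genes with at least 50 counts, 44.1% were lower in KO than in WT cells and the median was 0.03. Wars was the 1 cytosolic gene on the other side (-0.09, interval -0.18 to 0.01). Lars had the largest fold, with 142.5 CPM in KO and 96.7 CPM in WT stimulated cells (0.56, interval 0.44 to 0.68). Yars followed at 0.37 and Eprs at 0.33. None of the 37 reached 1.5-fold in either direction, as 1.58% of genes did upwards and 2.07% downwards. The mitochondrial genes were on both sides, with 7 of 17 higher, 10 lower and a median of -0.01. Iars2 was the 1 with an interval below 0 (-0.33, interval -0.46 to -0.19).

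In resting cells the lean was to the other side. Of 20 cytosolic genes 15 were lower in KO than in WT resting cells, with a median of -0.16, and of 17 mitochondrial genes 10 were lower, with a median of -0.06. Over the 10324 genes compared, 49.2% were lower in KO cells. Wars had the largest cytosolic fold (-0.52, interval -0.65 to -0.40), with 864 counts in KO and 1189 in WT cells. Rars (-0.38) and Farsb (-0.33) followed, and Dars was higher (0.27, interval 0.13 to 0.41). None of the 37 reached 1.5-fold, against 4.61% of genes upwards and 4.71% downwards.

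Since both leans have opposite signs, the difference between stimulated and resting cells was larger in the knockout pair than in the wild-type pair for 18 of 20 cytosolic genes. Its cytosolic median was 1.42 in KO and 0.98 in WT cells. The mitochondrial median was 0.60 in KO and 0.62 in WT cells. Over all genes tested, 6699 of 12848 had the larger difference in the knockout pair. With 1 library per group this could not be tested. Myc, beside these values, was at 524.1 and 387.6 CPM in KO and WT stimulated cells and at 98.1 and 182.7 CPM in KO and WT resting cells, and its part in them was not tested.

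In iTreg cells the cytosolic synthetases split. Of 20 genes 12 were lower and 8 higher in KO than in WT iTreg cells, and the median was -0.02. Over the 10214 genes compared, 45.8% were lower in KO cells. They were divided into synthetases known as ATF4-induced and the rest, a list drawn up with earlier results of these data known. Of 13 ATF4-linked genes 11 were lower in KO cells, with a median of -0.38 and 8 intervals below 0. Of the 7 other cytosolic genes 6 were higher, with a median of 0.44 and 5 intervals above 0. The mitochondrial genes lay on both sides, with 9 of 17 lower and a median of -0.02.

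Iars was lowest relative to wild type, at 142.3 CPM in KO and 259.4 CPM in WT iTreg cells (log2 fold -0.87, interval -0.96 to -0.77). Nars was at 143.6 CPM in KO and 240.1 CPM in WT iTreg cells (-0.74, interval -0.84 to -0.65). The wild-type iTreg library held the highest level of both genes among the 6 libraries. Cars (-0.51), Tars (-0.44), Yars (-0.42), Eprs (-0.40), Aars (-0.38) and Sars (-0.28) were lower too. On the other side Farsa was at 95.1 CPM in KO and 64.6 CPM in WT iTreg cells (0.56), Kars at 330.4 CPM in KO and 230.2 CPM in WT cells (0.52), and Hars at 107.5 CPM in KO and 77.5 CPM in WT cells (0.47). Qars and Rars were both at 0.44.

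Past 1.5-fold in iTreg cells were Iars, Nars and the mitochondrial glutamate enzyme Ears2 on the lower side, and Fars2, the mitochondrial phenylalanine enzyme, on the higher side. Ears2 was at 10.6 CPM in KO and 17.3 CPM in WT cells (-0.71, interval -1.08 to -0.36). Fars2 was at 20.7 CPM in KO and 12.6 CPM in WT cells (0.71, interval 0.39 to 1.06). These are 1 and 3 of 37 genes, against 13.1% of all genes past 1.5-fold higher and 14.8% lower in this pair, so their number is below the background share.

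The KO iTreg library also differed from the WT one in a way that follows transcript length. With all genes put into 5 bins of length, the median log2 fold of KO over WT iTreg cells was 0.41 in the bin of the shortest genes and -0.41 in that of the longest. In stimulated cells the same medians were 0.05 and -0.01, and in resting cells 0.06 and -0.08. The ATF4-linked synthetases are longer, with a median of 3013 bases against 2098 bases for the other cytosolic genes. With the length trend removed, 10 of 13 ATF4-linked genes were still lower, with a median of -0.19, and 6 of 7 others higher, with a median of 0.35. Iars was then at -0.68, Nars at -0.77, Fars2 at 0.58 and Ears2 at -0.31. The B cell and CD8 T cell marker sums were also higher in the KO iTreg library, and their part in these folds was not tested.

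**Figure D4:**
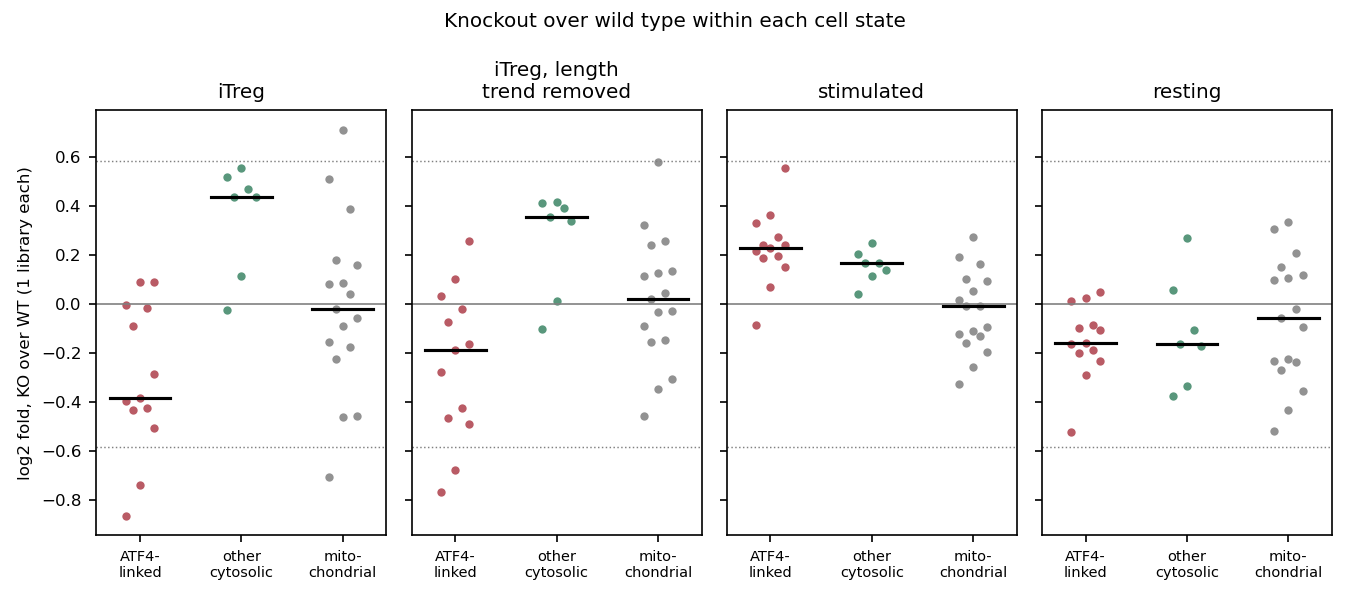
Log2 fold of KO over WT for each synthetase, by group, in iTreg cells, in iTreg cells with the length trend removed, in stimulated cells and in resting cells, 1 library each side, with group medians as bars and dotted lines at 1.5-fold. In iTreg cells the ATF4-linked median is -0.38 and that of the other cytosolic genes 0.44, and in stimulated cells 19 of 20 cytosolic points lie above 0.

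**Figure D5:**
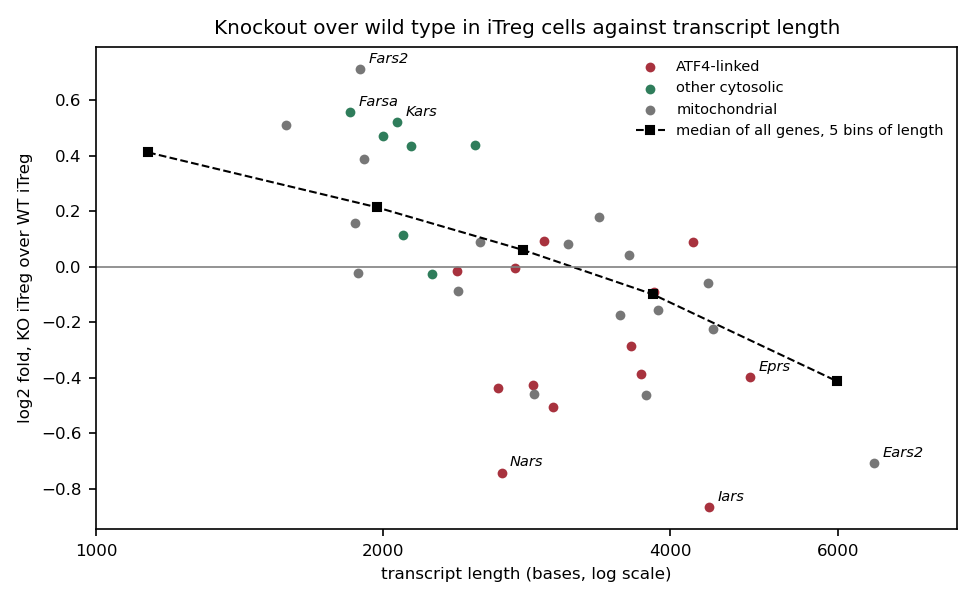
Log2 fold of KO over WT iTreg cells against transcript length (log scale) for the 37 synthetases, with the median of all genes in 5 bins of length as a dashed line. Nars lies 0.77 below its length trend, and the long gene Ears2 lies 0.31 below it.

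The ATF4 targets outside the family were lower in the same library. Of 21 genes 19 were lower in KO than in WT iTreg cells, with a median of -0.39, or -0.47 with the length trend removed. Asns was at 18.3 CPM in KO and 102.8 CPM in WT iTreg cells (-2.47). Atf5, a transcription factor of the same response, was at 33.2 CPM in KO and 101.5 CPM in WT cells (-1.61), and Trib3, a pseudokinase induced by ATF4, at 15.7 CPM in KO and 38.9 CPM in WT cells (-1.30). Slc7a5 was at 153.8 CPM in KO and 345.6 CPM in WT cells (-1.17), and Atf4 itself at 202.7 CPM in KO and 240.1 CPM in WT cells (-0.24). Xpot, the tRNA export receptor, was likewise lower, at 116.5 CPM in KO and 227.2 CPM in WT cells (-0.96, or -0.61 with the length trend removed). Of the 11 tRNA export and maturation genes it was taken from, 9 were higher in KO iTreg cells, with a median of 0.28. With the length trend removed, 6 of the 11 were higher and 5 lower, with a median of 0.07. In resting cells 10 of the 17 genes of the ATF4 target list with at least 50 counts were lower in KO cells, with a median of -0.06. Over all genes compared in resting cells 49.2% were lower. Slc7a5 (-0.90), Asns (-0.83) and Trib3 (-0.82) were past 1.5-fold lower in KO resting cells, and Cebpb (0.85) was past 1.5-fold higher. In stimulated cells 14 of the 18 genes of this list with at least 50 counts were higher in KO than in WT cells, with a median of 0.19. None of these comparisons has a replicate.

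The bases before the start of the synthetase genes were searched for the letters of 2 known elements, in the 250 bases before each start in the RefSeq promoter table of build GRCm38.p6. This table held 27 of the 37 members. Cars, Hars, Lars, Nars, Rars, Vars, Wars, Hars2 and Pars2 were among those it did not hold. The core of the ATF4 composite element, TGATGNAA (TTNCATCA on the other strand), was found in 3 of 27 members, 11.1%, against 3.91% of 27025 genes in the table. All 3 were ATF4-linked, Aars, Gars and Tars, of 8 such genes in the table, against 0 of 5 other cytosolic and 0 of 14 mitochondrial genes. The E-box CACGTG, bound by MYC and by other factors of its family, was found in Aars, Farsb and Iars, 11.1% of members against 6.86% of genes. The 2 elements share no bases. These are matches of letters, and nothing was measured about binding. The stretches around the ATF4 core, which the 3 genes have in common, and around the E-box of Iars, the synthetase with the largest difference between states, are given 5′ to 3′ on the strand of the gene, with the matched letters in capitals.
Aars, chr8:111033690-111033777, plus strand, match starting 112 bases before the start: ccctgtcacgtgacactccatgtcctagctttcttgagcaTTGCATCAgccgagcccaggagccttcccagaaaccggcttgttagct
Gars, chr6:55037931-55038000, plus strand, match starting 30 bases before the start: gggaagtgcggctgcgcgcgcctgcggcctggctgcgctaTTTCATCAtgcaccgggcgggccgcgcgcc
Tars, chr15:11399659-11399713, minus strand, match starting 15 bases before the start: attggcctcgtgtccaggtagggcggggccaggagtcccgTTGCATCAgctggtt
Iars, chr13:49682021-49682106, plus strand, match starting 69 bases before the start: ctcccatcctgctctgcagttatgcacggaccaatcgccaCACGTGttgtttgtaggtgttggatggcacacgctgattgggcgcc

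The 3 genes with the ATF4 core had unlike folds between genotypes. In iTreg cells Aars was at 188.4 CPM in KO and 245.9 CPM in WT, and Tars at 112.3 CPM in KO and 151.9 CPM in WT. Gars was at 211.0 CPM in KO and 213.3 CPM in WT iTreg cells (-0.02, interval -0.10 to 0.07). Nars, whose fold in that pair was among the largest, was not in the promoter table.

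Some values may hold reads of a neighbour, since the annotated spans of several members overlap another gene and no source used here gives the strandedness of the libraries. Mars1 overlaps Ddit3, itself an ATF4 target, Rars2 overlaps Orc3, and Hars and Hars2 overlap each other. Aars, Farsb, Iars2 and Wars overlap Ddx19b, Sgpp2, Rab3gap2 and Wdr25 in that order.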

How the data were processed

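RNA was measured in 6 libraries, 1 for each of 2 genotypes and 3 cell states. Bowtie2, HISAT and the mm9 build are named in the submitters' processing notes, with no version or role, and no source used here gives the quantifier or the strandedness. The deposited files hold expected counts per gene (estimated read numbers, not normalised) and, per the file headers, FPKM values. Expected counts were rounded to whole numbers, 76% of them being whole within 0.005 before. Identifiers were joined to symbols with a RefSeq table, which matched 17711 of 17759. Total counts of 9760285 to 10185664 per library give 50 counts at about 5 CPM, the minimum used for folds within a state.

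State and genotype were fitted together in edgeR 4.0.16 (R 4.3.3, TMM, filterByExpr with at least 10 counts, 12848 genes, 2 residual degrees of freedom), with Benjamini-Hochberg adjustment over all genes and a threshold of 0.05, and the procedure was tested on simulated data. Within a state no test was made: log2 folds of CPM used a prior count of 2 and a minimum fold of 1.5. Transcript lengths are those in the files, and the length trend was a lowess fit over all genes. DESeq2 1.42.0 and limma 3.58.1 on log2(FPKM + 1) served as alternatives. The members and the gene lists were chosen with earlier results of these data known, so no list was tested as a set. Values by library are given for members that passed a test or reached 1.5-fold, and for Eprs, Wars, Iars, Lars, Qars, Gars and Kars. The values of 2 single genes that enter the counts are not reported here.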

Additional observations from a re-analysis of the deposited data

Results flagged for a closer look

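For 9 cytosolic synthetases the knockout over wild-type fold had opposite signs in 2 states, with counting intervals on opposite sides of 0 and a gap of at least 1.5-fold. In each pair of states there is 1 library per group, so the difference was not tested. The share of all genes meeting this rule was not counted. The log2 fold in iTreg cells minus that in stimulated cells was -1.10 for Iars (-0.87 in iTreg and 0.23 in stimulated cells), -0.89 for Nars (-0.74 and 0.15), -0.79 for Yars (-0.42 and 0.37), -0.75 for Cars (-0.51 and 0.24), -0.73 for Eprs (-0.40 and 0.33), -0.66 for Aars (-0.38 and 0.27) and -0.63 for Tars (-0.44 and 0.19). All 7 are ATF4-linked. The log2 fold in iTreg cells minus that in resting cells was 0.81 for Rars (0.44 in iTreg and -0.38 in resting cells) and 0.69 for Kars (0.52 and -0.17). Neither of these is ATF4-linked. With the length trend removed the log2 fold in iTreg cells was -0.68 for Iars, -0.77 for Nars, -0.42 for Yars, -0.49 for Cars, -0.16 for Eprs, -0.28 for Aars, -0.47 for Tars, 0.34 for Rars and 0.41 for Kars. In stimulated cells it was then 0.34 for Eprs and 0.27 for Aars, so the gap of these genes fell below 1.5-fold.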

How the results depend on the processing

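Each group had 1 library, so leaving out a library leaves its state with a single sample that is assumed to vary like the others. The labels give no replicate numbers, and with 1 library per group there were no replicates to pair. State and genotype are both terms of the model, and leaving out genotype changed no count of members called by state. Without state in the model 0 of 12174 genes were called by genotype, so the count of 0 among the members carries no information there. Depth limits the mitochondrial genes most, with 47 to 127 counts for Nars2, Wars2, Pars2 and Mars2 in the resting libraries. Of 1924 values of single members under an alternative, 64 lost the call, 14 gained it and 1846 kept their side of the threshold. Of these, 84 turned sign, 0 of them called in either setting. Called under every alternative were 11 of 17 cytosolic and 3 of 8 mitochondrial genes in stimulated cells, 11 of 19 and 1 of 5 in iTreg cells, and Wars between iTreg and stimulated cells. With DESeq2 the mitochondrial genes called higher were 4 in stimulated and 3 in iTreg cells. With log2(FPKM + 0.1) in limma 0 cytosolic genes were called lower in iTreg than in resting or in stimulated cells, and with log2(FPKM + 1) 1 mitochondrial gene, Cars2, was called lower in iTreg than in resting cells. With the length trend removed 1 mitochondrial gene, Rars2, was called lower in iTreg than in stimulated cells. In the knockout libraries alone the cytosolic median was 1.42 in stimulated and 1.29 in iTreg cells. Without single libraries the mitochondrial genes called higher numbered 3 to 9 in stimulated and 1 to 5 in iTreg cells, and those called lower in iTreg cells 0 to 1 against either state. The cytosolic genes called lower numbered 0 to 1 in iTreg against resting and 0 to 2 in iTreg against stimulated cells. The cause of these changes was not tested. The shared genotype count stayed at 0 of 37 under all alternatives run, among them the fit without state, which called 0 of 12174 genes.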
